A study of Mus musculus with 2 samples.

Results

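Fatty acid oxidation and ketogenesis were followed as a set of 33 genes in liver and adipose tissue of male C57BL/6J wild-type mice after 4 weeks on normal or high-fat food. The members were taken by gene symbol, through the transcript accession of each probe, from the enzymes, carriers and regulators of the pathway, and they are 33 of 20880 genes that the arrays name. Members carry 42 probes, 25 members have 1 probe and 8 have several. All 33 were measured, that is, well above background in both channels, on either array.

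Total RNA of 10 livers and 10 adipose tissues was combined by diet, and each tissue was hybridised to 1 Agilent array with 2 channels, with green dye (Cy3) for normal-diet RNA and red dye (Cy5) for high-fat RNA. The 4 pools are therefore normal-diet liver, high-fat liver, normal-diet adipose tissue and high-fat adipose tissue, all from wild-type males. The age of the mice, the fat depot, the composition of the diets and the number of animals in each pool are not given in the sources used here. Pooling leaves no spread between animals, there is no repeat array and no dye swap, and so no p-value is given for any difference between the diets. In pooled tissue RNA, fewer cells of a type and less RNA per cell cannot be told apart.

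Long-chain fatty acids are activated to acyl-CoA, pass into mitochondria as carnitine esters and are shortened there by repeated rounds of dehydrogenation, hydration, dehydrogenation and thiolysis. Electrons from the first dehydrogenation reach the respiratory chain through the electron transfer flavoprotein, and in liver much of the acetyl-CoA leaves as ketone bodies. Very long and branched chains are first shortened in peroxisomes. In liver many of these genes are controlled by the nuclear receptor PPARα, which binds DNA with RXR at direct repeats of AGGTCA spaced by 1 base, together with the fasting-induced factor CREBH.

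On the liver array the members lay slightly but mostly upward in the high-fat pool, and none was 2-fold apart. The median log2 ratio of high fat over normal diet was 0.20 over the 33 members against 0.01 over all 13639 measured genes, and 27 of 33 (81.8%) lay above 0 against 52.3% of all genes. At least 2-fold higher or lower were 0 of 33 members, where 0.491% of all genes were that much higher and 0.579% that much lower. The smaller step used beside it is a ratio beyond 2 times the scanner software's own error, which for most genes is about 0.21 on the log2 scale. By that step 6 of 33 members (18.2%) were higher, Vnn1, Acaa1a, Acaa2, Hadhb, Cpt1a and Acads, against 4.53% of all genes, and 0 were lower against 3.3%. Of 30 hepatocyte markers measured on this array, 21 also lay above 0, 2 were at least 2-fold higher and 0 lower, at a median of 0.37, or 0.10 with the trend over brightness removed. Their log2 summed level was 21.04 in the normal-diet and 21.53 in the high-fat pool, none was below background in either pool, and their part in the members' values was not tested. Centring the ratios on the array's median without loess turned the split of all genes from 67 higher and 79 lower to 445 and 28, and that of the members from 0 and 0 to 6 and 0.

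On the adipose array the members were centred on no change, at a median of -0.01, the same as that of all 14312 measured genes, and 16 of 33 (48.5%) lay above 0 against 49.3% of all genes. A single member was at least 2-fold apart: Creb3l3, which encodes CREBH, was 3.76-fold higher in the high-fat pool (1 of 33 or 3.03%, against 4.23% of all genes), and 0 of 33 were 2-fold lower against 5.14%. Beyond 2 times the scanner error, 5 members (15.2%) were higher, against 13.6% of all genes, and 4 (12.1%) were lower, against 13.7%. These shares are close to the background of the array and are not a result about the members as a set. With median centring alone the split of all genes went from 605 higher and 735 lower to 4207 and 616, and 18 members were at least 2-fold higher and 0 lower.

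**Figure D1:**
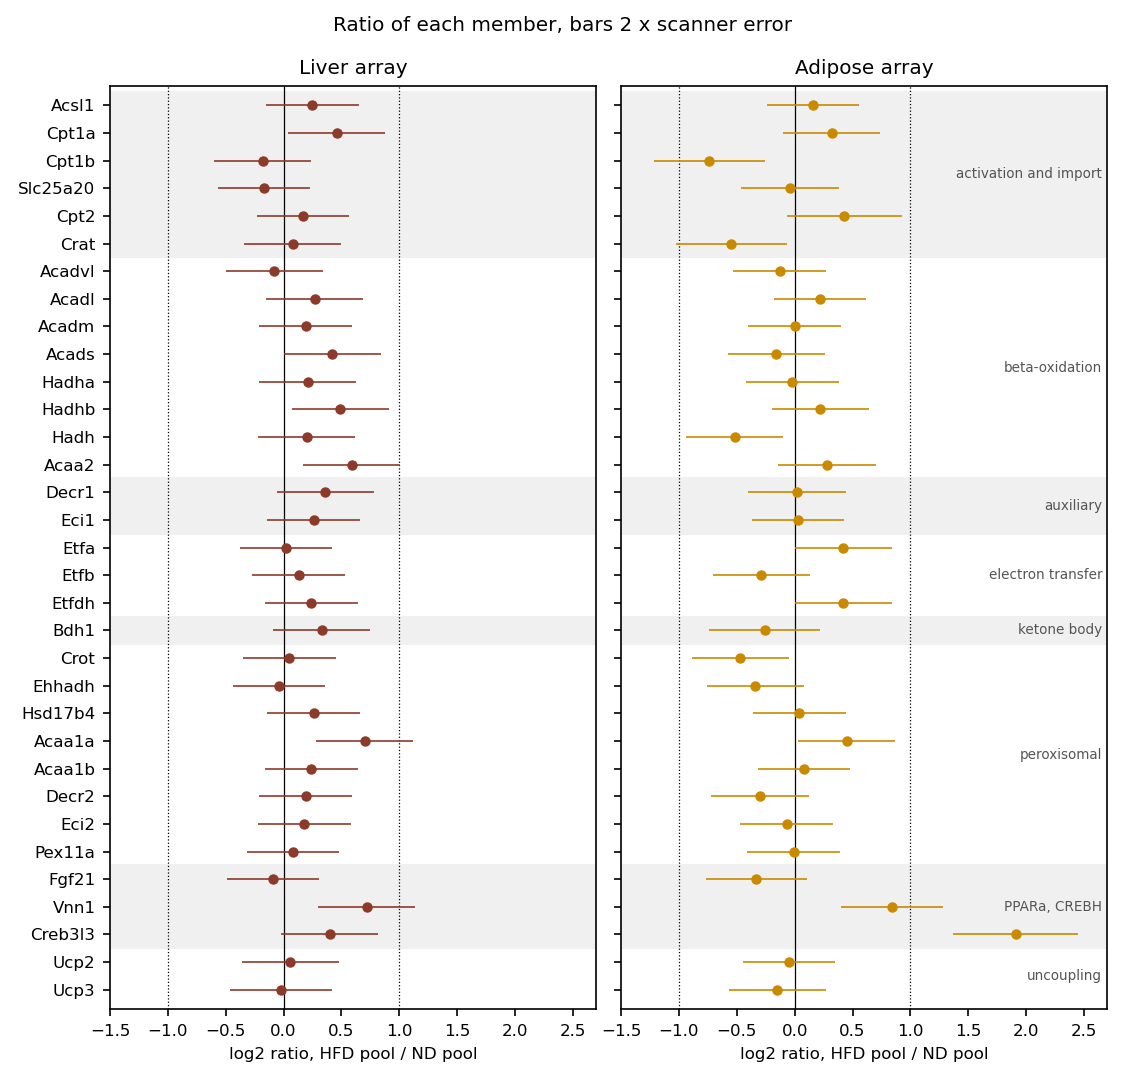
Log2 ratio of high-fat over normal-diet signal for each of the 33 members on the liver array (left) and the adipose array (right), ordered by role. Points are the mean over the probes of a gene, bars span 2 times the scanner error on either side, and dotted lines mark 2-fold. Liver points lie between -0.18 and 0.72, and in adipose tissue Creb3l3 at 1.91 is the only point past a dotted line.

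RefSeq promoter windows (build GRCm38.p6, 250 bases before to 50 after a start site) were at hand for 27 members, in 30 windows. Both strands were searched for DR1, the direct repeat of AGGTCA spaced by 1 base of any kind that PPARα with RXR binds, and for its half-site AGGTCA, which lies within it. The exact repeat was in 0 of 30 member windows and in 0.0396% of 32851 windows of the genome. With up to 2 mismatches it was in 4 of 30 (13.3%), against 3.86% of all windows, and the half-site was in 5 of 30 (16.7%), against 16.3%. The 4 windows with a near match belong to Creb3l3, Etfa, Slc25a20 and Ucp3. Every window with a near match is shown, whatever the ratio of its gene. Creb3l3 was the member with the highest adipose ratio. Etfa was beyond 2 times its error in adipose tissue, where its 2 probes were at 0.11 and 0.73, and not in liver. Slc25a20 and Ucp3 were within 2 times the scanner error on both arrays. Whether a near match goes with the ratio of a gene was not tested. Each window is written in the direction of the gene, with the near match in capitals. In Etfa the near match lies on the opposite strand.
Creb3l3, chr10:81092592-81092841, minus strand: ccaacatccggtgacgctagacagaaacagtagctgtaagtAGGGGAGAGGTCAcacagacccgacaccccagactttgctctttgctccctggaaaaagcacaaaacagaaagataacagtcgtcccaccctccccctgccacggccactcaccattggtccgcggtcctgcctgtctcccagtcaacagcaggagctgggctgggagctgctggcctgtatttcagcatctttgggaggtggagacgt
Etfa, chr9:55512284-55512344, minus strand: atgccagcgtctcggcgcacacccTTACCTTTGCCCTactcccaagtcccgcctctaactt
Slc25a20, chr9:108662118-108662154, plus strand: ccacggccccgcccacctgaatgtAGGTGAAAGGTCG
Ucp3, chr7:100472916-100472976, plus strand: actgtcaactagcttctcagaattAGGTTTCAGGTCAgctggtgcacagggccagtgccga

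The Creb3l3 window precedes the more downstream of 2 start sites of that gene, and the window of the other held no near match. A near match is a likeness of letters and does not show binding, and windows without one say nothing about the factor.

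A second stretch is shown because it belongs to both subunits of one enzyme. Hadha and Hadhb lie head to head on chromosome 5, with 272 bases between their start sites, so that their promoter windows share 228 bases. The run below is the Hadhb window up to its start site, with the bases that also belong to the Hadha window in capitals.
Hadhb, chr5:30155003-30155252, plus strand: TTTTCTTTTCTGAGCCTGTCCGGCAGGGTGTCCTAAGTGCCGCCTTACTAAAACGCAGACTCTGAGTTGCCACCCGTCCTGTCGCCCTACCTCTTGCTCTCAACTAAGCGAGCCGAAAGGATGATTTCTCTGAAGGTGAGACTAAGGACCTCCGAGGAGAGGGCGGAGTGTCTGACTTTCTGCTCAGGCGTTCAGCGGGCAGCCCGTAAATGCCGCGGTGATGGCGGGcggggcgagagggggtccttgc

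In what follows, the log2 level of a gene is given in the order normal-diet pool, then high-fat pool, and a ratio is always the log2 of high fat over normal diet. Levels of different genes come from different probes and are not set against each other. The scanner error covers the reading of the spots and not the mice. Where a probe is spotted 10 times on the array, the spread of its ratio was smaller than that error, with a median SD of 0.05 over 270 such probes in liver and 274 in adipose tissue.

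Activation and entry into mitochondria came first. Acsl1, which joins long-chain fatty acids to coenzyme A, had log2 levels of 14.96 and 15.21 in liver and 14.26 and 14.42 in adipose tissue. Its ratios were 0.25 in liver and 0.16 in adipose tissue, and neither was beyond 2 times its error. Its 2 probes differed on the liver array, at 0.05 and 0.44. Cpt1a, the liver form of the outer-membrane transferase that sets the pace of entry, was measured at log2 levels of 12.43 and 12.89 in liver and of 9.53 and 9.85 in adipose tissue. This gave ratios of 0.46 in liver and 0.32 in adipose tissue. The liver ratio was beyond 2 times its error of 0.21 and the adipose one was not. The probe of Cpt1a that is spotted 10 times gave 0.55 ± 0.02 (SD, n = 10 spots) in liver and 0.63 ± 0.02 (SD, n = 10 spots) in adipose tissue, while its other probe gave 0.36 and 0.02, so that the probes differed more in adipose tissue than repeat spots did. 

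Cpt1b, the form of muscle and brown fat, was at 9.08 and 8.90 in liver and at 7.84 and 7.10 in adipose tissue (log2 levels). The liver ratio was -0.18 and the adipose ratio -0.74. In adipose tissue this is 1.67-fold lower in the high-fat pool, beyond 2 times the error of 0.24, and the lowest ratio of the 33 members there, with both probes below 0 (-0.91 and -0.57). Skeletal muscle markers moved the same way on that array: 6 of 16 measured were at least 2-fold lower and 0 higher, at a median of -0.59, their log2 summed level went from 14.42 to 12.73, and of 23 markers 7 were not above background in the normal-diet pool and 4 in the high-fat pool. Of 10 brown fat markers 8 were measured there, with 1 higher and 1 lower by the 2-fold rule and a median of -0.07. In liver, muscle markers were lower too, 14 of 21 by the 2-fold rule at a median of -1.13, with log2 summed levels of 16.15 and 14.76 and 0 and 2 not above background. The part of muscle RNA in either Cpt1b value was not tested.

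Slc25a20, the carrier that exchanges acylcarnitine for carnitine across the inner membrane, had log2 levels of 11.24 and 11.08 in liver and 8.86 and 8.82 in adipose tissue. The ratio came to -0.17 in liver and -0.04 in adipose tissue. Both lay within the error. Cpt2, which turns acylcarnitine back into acyl-CoA in the matrix, was measured at log2 levels of 11.88 and 12.05 in liver and of 9.85 and 10.27 in adipose tissue. Ratios were 0.17 (liver) and 0.43 (adipose tissue), with both adipose probes alike (0.41 and 0.44) and the ratio just inside 2 times its error of 0.25, though beyond it by the software's ratio (0.69) and with a normexp offset of 10 (0.57). Crat, a transferase of short-chain acyl groups found in mitochondria and peroxisomes, was at 8.11 and 8.19 in liver and at 7.56 and 7.0 in adipose tissue (log2 levels). High fat over normal diet was 0.08 in liver and -0.55 in adipose tissue. The adipose ratio, 1.47-fold lower, was beyond 2 times its error of 0.24. Levels of Crat and Cpt1b in adipose tissue are near the dim end of that array, where the lowest level above background was 6.26 in the normal-diet and 5.66 in the high-fat channel, and the software's own ratios were farther from 0 (-0.86 for Crat and -1.10 for Cpt1b).

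Across the entry steps no common direction was seen. Of the 6 genes 4 lay above 0 in liver and 3 in adipose tissue.

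The acyl-CoA dehydrogenases take the first step of each round. Acadvl, for very long chains, had log2 levels of 16.09 and 16.01 in liver and 14.69 and 14.56 in adipose tissue. Between the diets it differed by -0.08 in liver and -0.13 in adipose tissue. Acadl, for long and branched chains, was measured at log2 levels of 12.82 and 13.09 in liver and of 12.21 and 12.43 in adipose tissue. Its ratios were 0.27 in liver and 0.22 in adipose tissue. Acadm, for medium chains, was at 15.18 and 15.37 in liver and at 14.18 and 14.18 in adipose tissue (log2 levels). This gave ratios of 0.19 in liver and 0.00 in adipose tissue. Acads, for short chains, had log2 levels of 10.65 and 11.07 in liver and 9.58 and 9.42 in adipose tissue. The liver ratio was 0.42 and the adipose ratio -0.16, and the liver ratio alone was beyond 2 times its error of 0.21. The 4 dehydrogenases thus lay between -0.08 (Acadvl) and 0.42 (Acads) in liver and between -0.16 (Acads) and 0.22 (Acadl) in adipose tissue. Whether chain length goes with the ratio was not tested.

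The later steps for long chains belong to the trifunctional protein. Hadha, its alpha subunit with hydratase and dehydrogenase activity, was measured at log2 levels of 11.28 and 11.49 in liver and of 9.63 and 9.61 in adipose tissue. The ratio came to 0.21 in liver and -0.02 in adipose tissue. Hadhb, the beta subunit with thiolase activity, was at 14.54 and 15.04 in liver and at 13.84 and 14.06 in adipose tissue (log2 levels). Ratios were 0.49 (liver) and 0.22 (adipose tissue). In liver Hadhb was beyond 2 times its error of 0.21 and Hadha was not, although both genes lie around the stretch printed above. The gap of the liver ratios, 0.49 against 0.21, is under 2 times that error. Hadh, the dehydrogenase of medium and short chains, had log2 levels of 14.53 and 14.73 in liver and 15.23 and 14.70 in adipose tissue. High fat over normal diet was 0.20 in liver and -0.52 in adipose tissue. In adipose tissue it was 1.44-fold lower in the high-fat pool, beyond 2 times its error of 0.21. With median centring alone Hadh was at 0.66, where the median of all genes was 0.69. It is the only member outside the uncoupling proteins whose normal-diet level was higher on the adipose than on the liver array. Acaa2, the mitochondrial thiolase that releases acetyl-CoA, was measured at log2 levels of 16.43 and 17.02 in liver and of 14.22 and 14.50 in adipose tissue. Between the diets it differed by 0.59 in liver and 0.28 in adipose tissue. Its only probe, spotted 10 times, gave 0.59 ± 0.07 (SD, n = 10 spots) in liver, with single spots from 0.46 to 0.67, and 0.28 ± 0.03 (SD, n = 10 spots) in adipose tissue, from 0.21 to 0.33.

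The liver ratio of Acaa2 has to be read with its brightness. Taking all genes, whatever their role, the 50 with a mean log2 brightness of 17 to 18 had a median ratio of 0.61 and the 107 from 16 to 17 one of 0.26, while the medians of all bins from 6 to 15 lay within 0.02 of 0. With the running median of all genes at the same brightness subtracted, Acaa2 was at 0.27, within 2 times its error, and Acaa1a kept 0.46. Of the 33 members, 4 lie above a brightness of 16 in liver and 11 between 15 and 16, where all genes had a median of 0.05. After that subtraction the median of all members in liver stayed at 0.20, with 26 of 33 above 0 and 5 beyond 2 times the error. The median of all genes was then 0.01, and their shares above 0 and beyond 2 times the error were not counted.

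**Figure D2:**
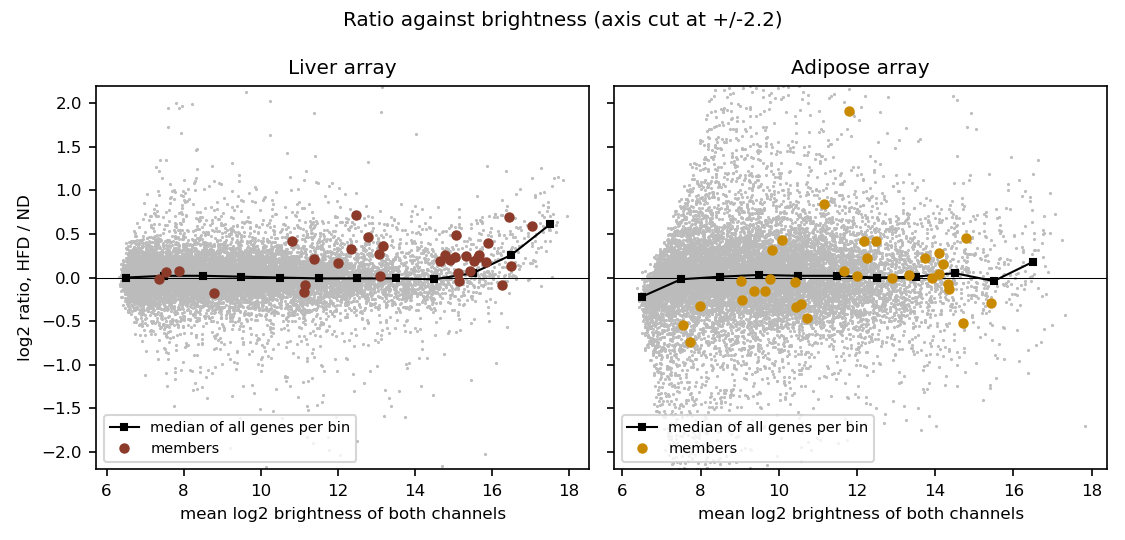
Log2 ratio of high fat over normal diet against the mean log2 brightness of both channels for all measured genes (grey), the members (coloured) and the median of all genes per unit of brightness (squares, bins of at least 20 genes), on the liver array (left) and the adipose array (right). The liver median rises to 0.61 in the brightest bin, and most liver members between 10 and 16 lie above the squares.

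Unsaturated chains need auxiliary enzymes before the core of the spiral can act on them. Decr1, the mitochondrial dienoyl-CoA reductase, was at 12.91 and 13.27 in liver and at 12.02 and 12.03 in adipose tissue (log2 levels). Its ratios were 0.36 in liver and 0.02 in adipose tissue, with both liver probes above 0 (0.32 and 0.39). Eci1, the mitochondrial isomerase that moves double bonds, had log2 levels of 14.37 and 14.63 in liver and 13.51 and 13.54 in adipose tissue. This gave ratios of 0.26 in liver and 0.03 in adipose tissue. In adipose tissue both sat at 0.02 and 0.03.

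The electron transfer flavoprotein passes electrons on to the ubiquinone pool. Etfa, its alpha subunit, was measured at log2 levels of 12.96 and 12.98 in liver and of 12.04 and 12.46 in adipose tissue. The liver ratio was 0.02 and the adipose ratio 0.42. The 2 adipose probes were at 0.11 and 0.73, so the mean, beyond 2 times the error of 0.21, rests on 1 of them. Etfb, the beta subunit, was at 16.20 and 16.33 in liver and at 15.79 and 15.50 in adipose tissue (log2 levels). The ratio came to 0.13 in liver and -0.29 in adipose tissue. Etfdh, the membrane-bound oxidoreductase that takes the electrons, had log2 levels of 14.64 and 14.88 in liver and 12.36 and 12.77 in adipose tissue. Ratios were 0.24 (liver) and 0.42 (adipose tissue), and the adipose ratio was just beyond 2 times its error of 0.21. On the adipose array the 2 subunits of the flavoprotein thus lay on opposite sides of 0, while in liver all 3 genes lay between 0.02 and 0.24.

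Bdh1, the dehydrogenase that interconverts acetoacetate and beta-hydroxybutyrate and so makes the last step of ketogenesis in liver, was measured at log2 levels of 12.11 and 12.44 in liver and of 9.06 and 8.81 in adipose tissue. High fat over normal diet was 0.33 in liver and -0.26 in adipose tissue. All 3 of its probes were above 0 in liver (0.19 to 0.47) and all 3 below 0 in adipose tissue (-0.50 to -0.13), with both means within 2 times the error. Over the 20 mitochondrial members, Bdh1 included, the median ratio was 0.22 in liver with 17 above 0, and 0.01 in adipose tissue with 11 above 0.

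Of the peroxisomal genes, those that make or handle shortened chains were described first. Crot, which links medium-chain acyl groups to carnitine for export, was at 14.81 and 14.86 in liver and at 10.88 and 10.42 in adipose tissue (log2 levels). Between the diets it differed by 0.05 in liver and -0.47 in adipose tissue, and the adipose ratio, 1.38-fold lower, was beyond 2 times its error of 0.21. With median centring alone Crot was at 0.49 there, where the median of all genes was 0.69. Ehhadh, the L-bifunctional enzyme, had log2 levels of 14.91 and 14.87 in liver and 10.51 and 10.18 in adipose tissue. Its ratios were -0.04 in liver and -0.34 in adipose tissue. Hsd17b4, the D-bifunctional enzyme, was measured at log2 levels of 15.32 and 15.58 in liver and of 14.37 and 14.41 in adipose tissue. This gave ratios of 0.26 in liver and 0.04 in adipose tissue. Neither bifunctional enzyme was beyond 2 times its error on either array, except Ehhadh in adipose tissue by the software's ratio (-0.42).

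The peroxisomal thiolases are a pair of closely related mouse genes on chromosome 9, and a probe for one may bind transcripts of the other. Acaa1a, which cleaves the shortened acyl-CoA, was at 15.87 and 16.56 in liver and at 14.82 and 15.27 in adipose tissue (log2 levels). The liver ratio was 0.70 and the adipose ratio 0.45. These are 1.62-fold and 1.36-fold higher in the high-fat pool, both beyond 2 times the error of 0.21. Acaa1b, its PPARα-induced relative, had log2 levels of 15.28 and 15.52 in liver and 11.66 and 11.73 in adipose tissue. The ratio came to 0.24 in liver and 0.08 in adipose tissue. The genes also differed in their distribution, with a normal-diet level that was 1.04 higher on the liver than on the adipose array for Acaa1a and 3.62 higher for Acaa1b.

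Decr2, the peroxisomal dienoyl-CoA reductase, was measured at log2 levels of 14.28 and 14.48 in liver and of 10.64 and 10.34 in adipose tissue. Ratios were 0.19 (liver) and -0.30 (adipose tissue). Eci2, an isomerase of peroxisomes and mitochondria, was at 15.52 and 15.70 in liver and at 14.62 and 14.55 in adipose tissue (log2 levels). High fat over normal diet was 0.18 in liver and -0.07 in adipose tissue. Pex11a, a membrane protein of peroxisome division that PPARα ligands induce in rodents, had log2 levels of 15.14 and 15.22 in liver and 13.03 and 13.01 in adipose tissue. Between the diets it differed by 0.08 in liver and -0.01 in adipose tissue. Over 10 repeat spots Pex11a gave 0.08 ± 0.02 (SD, n = 10 spots) in liver and -0.01 ± 0.02 (SD, n = 10 spots) in adipose tissue. The 8 peroxisomal members had a median of 0.19 in liver with 7 above 0, and of -0.04 in adipose tissue with 3 above 0. Whether mitochondrial and peroxisomal steps differed was not tested.

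**Figure D3:**
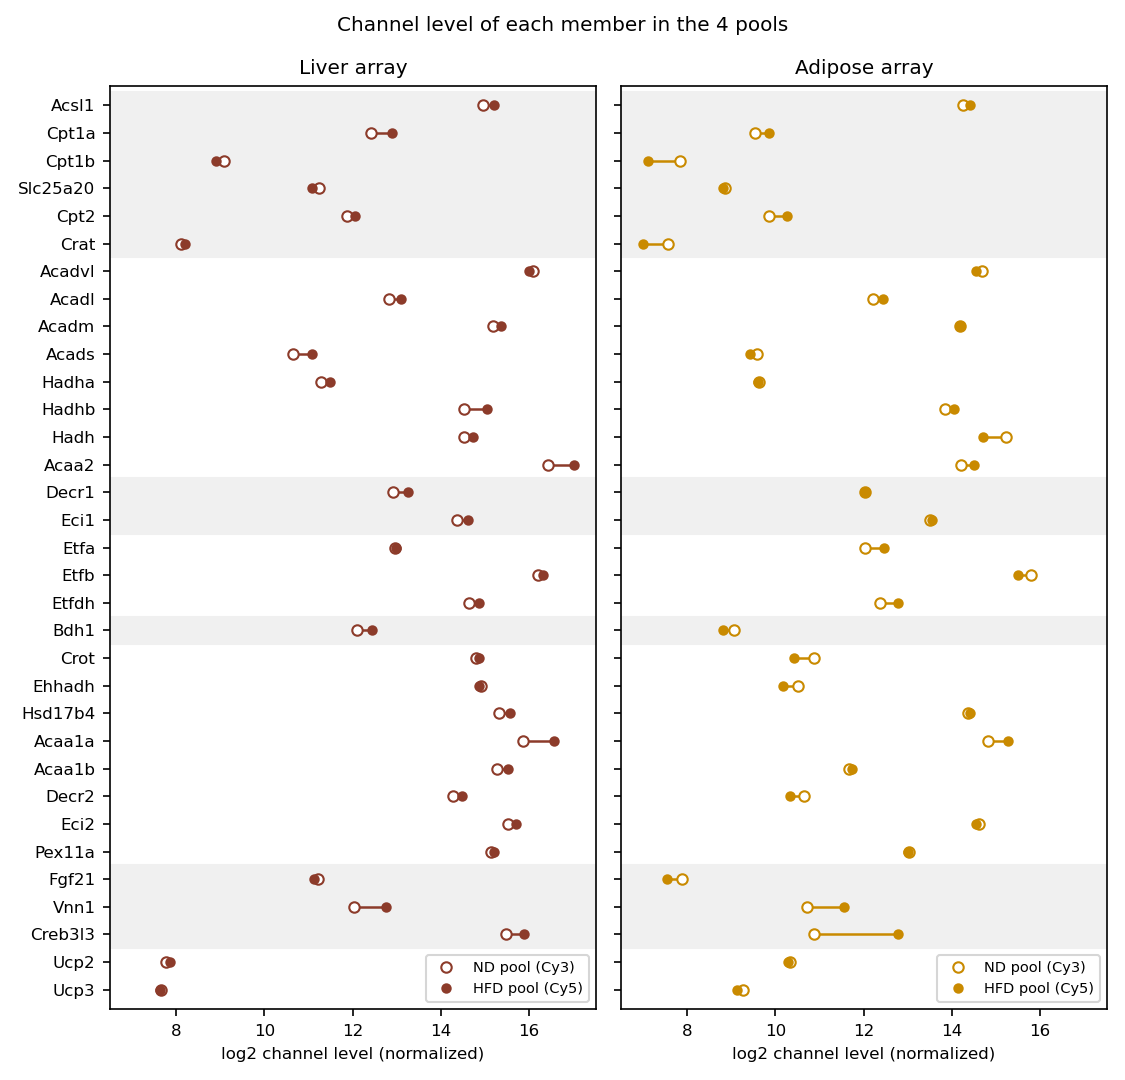
Normalized log2 channel level of each member in the normal-diet pool (open circles) and the high-fat pool (filled circles) of liver (left) and adipose tissue (right). Lines join the pools of 1 array. Positions of different genes come from different probes and are not comparable, and the longest line is that of Creb3l3 in adipose tissue, from 10.87 to 12.78.

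Of the 3 genes tied to PPARα and CREBH, Vnn1 had the highest liver ratio of the 33 members and Creb3l3 and Vnn1 the highest adipose ratios, while Fgf21 lay below 0 on both arrays. Creb3l3, the membrane-bound transcription factor CREBH that drives Fgf21 and apolipoprotein genes in fasting liver, was measured at log2 levels of 15.48 and 15.88 in liver and of 10.87 and 12.78 in adipose tissue. Its ratios were 0.40 in liver and 1.91 in adipose tissue. Its adipose spot read 787 in green over a local background of 28.5 and 16092 in red over 52.5 before normalization, on an array whose median spot read 92 and 247. The adipose ratio is beyond 2 times its error of 0.27, and the liver ratio is within 2 times its error of 0.21.

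Creb3l3 is known from liver and small intestine, and markers of both moved on the adipose array, in opposite directions. Of 30 small intestine markers 28 were measured, and all 28 were at least 2-fold higher in the high-fat pool, with a median of 3.77, led by Fabp2 (6.42), Reg3b (6.36) and Sis (5.76); their log2 summed level was 16.18 in the normal-diet and 19.96 in the high-fat pool, and 2 markers were not above background in the former and 0 in the latter. Of 28 hepatocyte markers measured, 22 were at least 2-fold lower and 0 higher, with a median of -3.10, led by Ambp (-5.59), Fgg (-5.32) and Serpinc1 (-4.93). Their log2 summed level was 19.03 and 17.93, with 0 and 2 markers not above background. Markers of exocrine pancreas (14 of 18 lower, median -1.89) and of the male reproductive tract (8 of 10 measured lower, median -2.83) were also lower by the 2-fold rule, and 0 of either list were higher. Of 17 adipocyte markers 1 was higher, Lep at 1.66, and 1 lower, Cfd at -1.70, while 0 of 10 macrophage and 0 of 4 kidney markers were 2-fold apart. The part of any such tissue in the Creb3l3 ratio, or in any other adipose ratio given here, was not tested.

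Vnn1, the pantetheinase vanin-1, a target of PPARα in liver that gut epithelium also expresses, was at 12.04 and 12.76 in liver and at 10.71 and 11.55 in adipose tissue (log2 levels). This gave ratios of 0.72 in liver and 0.84 in adipose tissue. These are 1.64-fold and 1.79-fold higher in the high-fat pool, each beyond 2 times its error of 0.21 and 0.22. Vnn1 and Acaa1a are the 2 members that were higher beyond 2 times the error in both tissues, and both kept this under all 9 alternatives tried. Each has 1 probe, so alternatives that only change which probes count could not alter these ratios. Under median centring alone most members were higher by this step on both arrays. Fgf21, the hepatic fasting hormone under PPARα and CREBH, had log2 levels of 11.22 and 11.13 in liver and 7.88 and 7.55 in adipose tissue. The liver ratio was -0.09 and the adipose ratio -0.33. Its ratio in adipose tissue did not follow that of Creb3l3, and neither Fgf21 ratio was beyond 2 times its error, although the software's adipose ratio (-0.46) was.

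Ucp2, a mitochondrial carrier of the uncoupling protein family, was measured at log2 levels of 7.78 and 7.85 in liver and of 10.34 and 10.29 in adipose tissue. The ratio came to 0.06 in liver and -0.05 in adipose tissue. Ucp3, its relative of muscle and brown fat, was at 7.66 and 7.63 in liver and at 9.26 and 9.12 in adipose tissue (log2 levels). Ratios were -0.02 (liver) and -0.15 (adipose tissue). A second Ucp3 probe was not above background in liver. Both genes were brighter on the adipose array and lay within 0.15 of no change on either.

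The arrays also place the members by tissue, as far as 1 array per tissue allows, since tissue, slide and scan cannot be told apart and the levels rest on giving both arrays the same distribution of brightness. The tissue labels fit their markers on these arrays, with a higher level on the liver array for 26 of 28 hepatocyte markers (median difference, liver minus adipose, of 4.47) and 13 of 13 adipocyte markers brighter on the adipose array (-4.82). In the normal-diet pools 30 of 33 members (90.9%) were brighter on the liver array, against 52.4% of all genes measured on both. At least 2-fold brighter there were 19 (57.6%), against 16.1% of genes, and at least 2-fold dimmer were 2 (6.06%), against 18.2%.

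The differences in normal-diet log2 level, liver minus adipose, were largest for Creb3l3 (4.61), Ehhadh (4.40), Crot (3.93), Decr2 (3.64), Acaa1b (3.62), Fgf21 (3.34) and Bdh1 (3.04). Mitochondrial genes spread widely, with Bdh1, Cpt1a (2.90), Slc25a20 (2.39) and Etfdh (2.29) at the upper end and Etfb (0.41) near no difference, and among peroxisomal genes Acaa1a (1.04), Hsd17b4 (0.96) and Eci2 (0.90) were at the low end. Ucp2 (-2.56), Ucp3 (-1.60) and Hadh (-0.69) were brighter on the adipose array. Hepatocyte markers were above background in the normal-diet adipose pool, at log2 levels from 6.87 to 17.32, and their part in these differences was not tested.

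**Figure D4:**
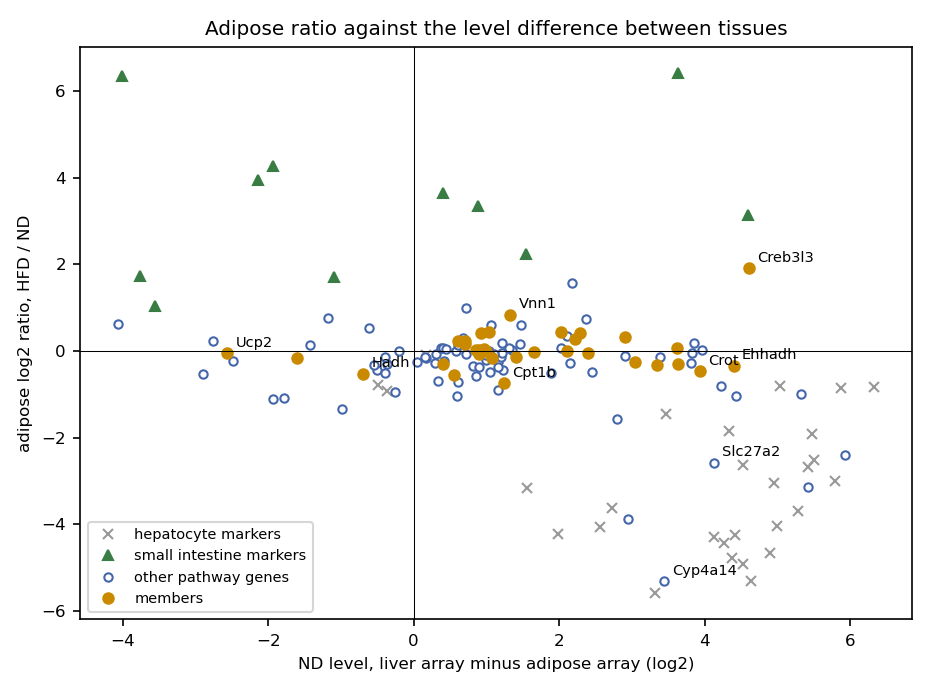
Adipose log2 ratio of high fat over normal diet against the difference in normal-diet log2 level between the liver and the adipose array, for members (filled circles), other pathway genes (open circles), hepatocyte markers (crosses) and small intestine markers (triangles). Both axes use the normal-diet adipose channel. Members with a level difference above 3 lie between -0.47 and 0.08 except Creb3l3 at 1.91, while 22 of 28 hepatocyte markers lie below -1.

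A further 79 genes of the pathway give the setting of the members. In liver 77 were measured, with a median of 0.09, 1 at least 2-fold lower and 0 higher. That gene was Pdk4, the kinase that holds back pyruvate oxidation, which had levels of 11.98 and 10.50 and a ratio of -1.48. By the smaller step 11 of 77 were higher and 3 lower, against 4.53% and 3.3% of all genes. In adipose tissue 78 were measured, with a median of -0.16. There 1 was at least 2-fold higher and 11 lower, against 4.23% and 5.14% of all genes. By the smaller step 13.6% of all genes were higher on that array and 13.7% lower. These shares are the background for the lists that follow.

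Of 29 other peroxisomal genes, all measured on both arrays, 22 lay above 0 in liver at a median of 0.17. Beyond 2 times the error were, among others, Slc27a2, which activates very long chains, at levels of 16.20 and 16.75 and a ratio of 0.55, Phyh, which opens the breakdown of phytanic acid (0.50), and the transporter Abcd3 (0.47). Slc27a2 and Phyh are in the bright range of the array where all genes tend upward, and the software's ratios for them were lower, at 0.30 and 0.23. Abcd3, at a mean log2 brightness of 15.98, was at 0.36 by the software's ratio and after subtraction of the running median. Each of these values is within 2 times its error, a bound of 0.41. In adipose tissue the same list had a median of -0.14, with Slc27a2 lower by the 2-fold rule (levels 12.08 and 9.50, ratio -2.58). Beyond 2 times the error 2 of the 29 were higher there, Abcd2 (0.77) and Abcd3 (0.73), and 6 were lower.

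The 16 other mitochondrial genes measured in liver had a median of 0.04, none of them 2-fold apart, and Hsd17b10, a short-chain dehydrogenase, was highest at 0.57. In adipose tissue the 17 measured had a median of -0.29, and acyl-CoA synthetases differed among themselves. Acsl5, a synthetase abundant in intestine and liver, went from 10.45 to 12.03 (ratio 1.58) and Acsl4, which prefers arachidonic acid, from 12.64 to 11.30 (-1.33), while the member Acsl1 was at 0.16. Acacb, whose product malonyl-CoA blocks carnitine palmitoyltransferase, was at 11.92 and 10.81 (-1.11), with both probes low (-1.22 and -1.01), and Hsd17b10 was at 14.89 and 13.86 (-1.03). Acsl6 was not well above background in either channel on either array, and Cpt1c in neither channel of the liver array.

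Genes of ketone body metabolism beyond Bdh1 did not move as a list in liver, where 8 of 8 were measured, 3 lay above 0 and the median was -0.03. There Oxct1, which lets peripheral tissues use ketone bodies, was at levels of 9.48 and 8.92 (-0.56). In adipose tissue the median was -0.36 and none was 2-fold apart. Beyond 2 times the error 4 of the 8 were lower, among them Bdh2, a cytosolic dehydrogenase, at levels of 10.56 and 9.66 (-0.91), and the monocarboxylate carrier Slc16a7, at 8.43 and 7.72 (-0.70). The 1 that was higher by that step was Oxct1, at 13.54 and 14.16 (0.62).

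The 24 regulators and other PPARα targets had a median of 0.11 in liver and -0.13 in adipose tissue. Ppara itself was at 0.20 and 0.03. In liver the targets Fabp1 (0.97), Cyp4a14 (0.81), Cyp4a10 (0.72), Cyp4a31 (0.54) and Cyp4a32 (0.52) were higher beyond 2 times the error. On the other side, 2 of the 24 were lower beyond it, Pdk4 (-1.48) and Angptl4 (-0.50). Pdk4 stayed below 0 under every alternative (-1.51 to -1.03). With median centring alone Angptl4 was at 0.26, where the median of all genes was 0.32. Fabp1, Cyp4a14 and Cyp4a10 are in the bright range of the array too, and the software's ratios for them were 0.48, 0.33 and 0.45, of which that of Cyp4a14 is within 2 times its error. In adipose tissue 7 of the 24 were at least 2-fold lower, beside hepatocyte markers at a median of -3.10: Cyp4a14 (-5.32), Cyp4a31 (-3.87), Cyp4a10 (-3.14), Cyp4a32 (-2.41), Fabp1 (-1.57), Pdk4 (-1.08) and Acot1 (-1.04), a cytosolic acyl-CoA thioesterase. Cyp4a genes are very alike in sequence, so these values may not be separate observations. Beyond 2 times the error 3 of the 24 were higher in adipose tissue, Esrra (0.99), G0s2 (0.59) and Angptl4 (0.52), and 8 were lower.

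**Figure D5:**
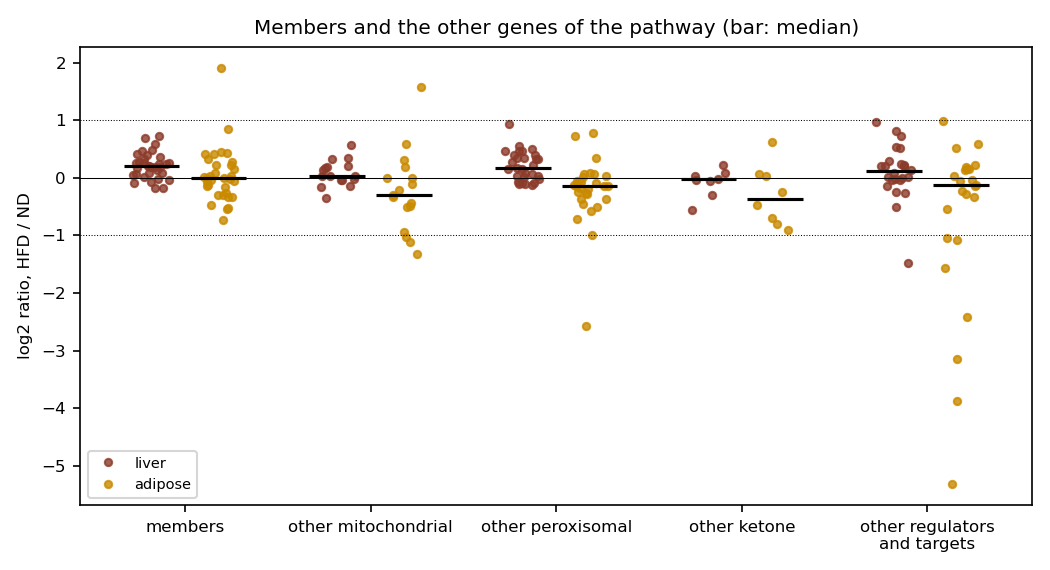
Log2 ratio of high fat over normal diet for the 33 members and the 4 lists of other pathway genes on the liver array and the adipose array. Each point is a gene, bars are medians and dotted lines mark 2-fold. The liver points stay within 2-fold except Pdk4 at -1.48, and the adipose points reach down to Cyp4a14 at -5.32.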

How the data were processed

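Each file is the scanner output of 1 array. Spot and background signals are intensity values that the authors deposited as median pixel intensities, with flags for spots well above background, saturated spots and outliers. The deposited log10 ratio of red over green and its error were converted to log2. Agilent Feature Extraction 11.5.1.1 with protocol GE2_1105_Oct12 and the mm9 design were named per the file headers, whereas the submitters' processing notes give version 8.5.1.1.

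From these intensities, local backgrounds marked as outliers were replaced by the array and channel median, signals were corrected with normexp (offset 50) and ratios were normalized by loess within each array with control spots at weight 0, in limma 3.58.1 and R 4.3.3. Channel levels were then set to a common distribution with Aquantile. Log2 values were averaged over repeat spots and then over the probes of each gene. A probe counted as measured when at least 50% of its spots that were not outliers were well above background in both channels, which held for 23041 of 39429 probes in liver (58.5%) and 23189 in adipose tissue (58.8%). The median spot read 87.5 (normal diet) and 117 (high fat) in liver and 92 and 247 in adipose tissue, over backgrounds of 28 and 48 and of 28 and 52.5. Precision is limited by the number of arrays, 1 for each tissue. No test was possible, so differences are described by a 2-fold rule and by 2 times the scanner error, which is the software's own within-array error.

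Gene names came from transcript accessions matched to RefSeq. All 33 members, the other pathway genes and the marker lists (hepatocyte, adipocyte, brown fat, skeletal muscle, small intestine, exocrine pancreas, male reproductive tract, kidney and macrophage) were chosen with earlier results of these data known. All members are named, and of the other pathway genes those at least 2-fold apart in either tissue. Any others were picked for naming once their values were known. The files hold median and not mean signals, and the design allowed either. A planned comparison of member proteins was not run, and single values of 3 of the other pathway genes are not reported here. The steps were tested on simulated data, and 9 alternatives were tried.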

Additional observations from a re-analysis of the deposited data

Results flagged for a closer look

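None of the 33 members lay beyond 2 times the scanner error in opposite directions on the 2 arrays. Of the other pathway genes 10 did, and the difference between the tissues was not tested, since there is 1 array for each. The values are adipose minus liver log2 ratio. For genes above 0 in liver and below 0 in adipose tissue the difference was -6.13 for Cyp4a14, -4.41 for Cyp4a31, -3.86 for Cyp4a10, -3.12 for Slc27a2, -2.92 for Cyp4a32, -2.54 for Fabp1, -1.60 for Hsd17b10 and -1.01 for Phyh. For genes below 0 in liver and above 0 in adipose tissue it was 1.18 for Oxct1 and 1.02 for Angptl4. Some of these opposite directions depended on the processing. The liver values of Phyh and Slc27a2 were within 2 times the error by the software's ratio (0.23 and 0.30) and after subtraction of the running median (0.25 and 0.26), as was that of Cyp4a14 by the software's ratio (0.33). With median centring alone, Phyh (0.61) and Hsd17b10 (0.12) in adipose tissue and Angptl4 in liver (0.26) turned to the other side of 0, and Oxct1 in liver (-0.20) came within 2 times its error. The median of all genes was then 0.32 in liver and 0.69 in adipose tissue. Under another alternative Oxct1 in liver was at -0.15, also within 2 times its error. On the same adipose array hepatocyte markers had a median of -3.10, and their part in these differences was not tested.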

How the results depend on the processing

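No paired analysis was possible because each tissue has 1 array and no replicate. Over 9 alternatives, 66 member ratios (33 in each tissue) stayed within the scanner error of the reported value under 5 of them, although Ucp3 in liver turned from -0.02 to 0.06 with no background subtraction and Etfa in liver from 0.02 to -0.03 with local backgrounds as deposited. Alternatives that only loosen the filter on dim probes could hardly alter a member. In liver 41 of 42 member probes already passed it, and in adipose tissue 42 of 42. With the scanner software's ratio 5 member ratios moved, after taking off the running median 4, and with the brightest probe of each gene 2. By the software's ratio 1 member was 2-fold lower in adipose tissue, Cpt1b at -1.10. Acaa2 in liver was no longer beyond 2 times its error by the software's ratio (0.21) or after the running median (0.27), and Cpt1a and Acads were not with local backgrounds as deposited. In adipose tissue Etfa was not by the software's ratio or the brightest probe, and Etfdh was not by the software's ratio, an offset of 10 or the running median. Gained beyond 2 times the error in adipose tissue were Cpt2 (0.69), Ehhadh (-0.42) and Fgf21 (-0.46) by the software's ratio, Cpt2 with an offset of 10 (0.57) and Cpt1a with the brightest probe (0.63), and in liver Acsl1 with the brightest probe (0.44).

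Median centring without loess moved the median of all genes to 0.32 in liver and 0.69 in adipose tissue. In liver 6 members were then 2-fold higher, 27 were higher beyond 2 times the error, and the median was 0.86 for all members, 0.87 for mitochondrial and 0.89 for peroxisomal ones. In adipose tissue 18 were 2-fold higher, 29 were higher and 0 lower beyond 2 times the error, 31 lay above 0, and the medians were 1.03, 1.02 and 1.08. All genes at least 2-fold higher then numbered 445 of 13639 in liver and 4207 of 14312 in adipose tissue. Relative to all genes the members' median was 0.55 higher in liver and 0.34 higher in adipose tissue. By 2-fold on that footing, 2 members were higher and 0 lower in liver, and 2 higher and 2 lower in adipose tissue. By 2 times the error on that footing, 22 were higher and 0 lower in liver, and 12 higher and 3 lower in adipose tissue. The share of all genes beyond 2 times the error was not counted with median centring. Member counts by that step are therefore not read here as a result about the members. Above the median of all genes lay 28 members in liver and 24 in adipose tissue. Median centring changed the sign of 6 member ratios in liver and 15 in adipose tissue, most of them within 2 times the error as reported. Some ratios beyond 2 times the error went to the other side of 0. Among those named here this held for Angptl4 in liver (0.26). In adipose tissue it held for Hadh (0.66), Crot (0.49), Ivd (0.59), Mlycd (0.58), Hsd17b10 (0.12), Phyh (0.61), Cat (0.55), Pex5 (0.28), Pex11g (0.47), Bdh2 (0.01), Pdk4 (0.01) and Txnip (0.56). Every one of these values was below the median of all genes under that setting, 0.32 in liver and 0.69 in adipose tissue. The cause was not tested.

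All genes at least 2-fold higher and lower numbered 67 and 79 in liver and 605 and 735 in adipose tissue as reported. They numbered 138 and 157, and 901 and 1230, by the software's ratio, and 20 and 35 in liver with local backgrounds as deposited. Where 1 channel above background was enough, 116 were higher in liver. Of the members, 30 were brighter on the liver array under every alternative that gives channel levels, which the software's ratio and the running median do not.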
